A study of Mus musculus with 2 samples.

Results

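Rgs10 encodes a small regulator of G protein signalling, and on these arrays it had the lowest transcript ratio of all named genes when T cells carrying the LatY136F form of the adaptor Lat were set against wildtype T cells, in the likely direction of the ratio. The gene was chosen by its measured ratio, so its own value is given as a description and carries no test. It is described beside its relatives: 10 Rgs genes were looked for by gene symbol (Rgs1, Rgs2, Rgs3, Rgs4, Rgs5, Rgs10, Rgs14, Rgs16, Rgs18 and Rgs19), and 5 of them had a probe (Rgs2, Rgs3, Rgs5, Rgs10 and Rgs19), each 1 probe, of 4331 named genes on the arrays. Rgs13, outside those 10 names, also had a probe, which makes 6 Rgs genes measured. Rgs1, Rgs4, Rgs14, Rgs16 and Rgs18 were not analysed here.

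The study hybridised total RNA of mouse splenic T cells, wildtype and LatY136F, together on 2 two-colour arrays. The cells were CD4+ and bore the alpha beta T cell receptor; they were enriched with magnetic beads against CD4 and then sorted, and the labels give no strain, age, number of mice or pooling. LatY136F replaces a tyrosine of Lat, the membrane adaptor that links the T cell receptor to phospholipase C gamma, by a phenylalanine; it is a germline change, so all cells of such mice carry it. On array 1 the wildtype RNA was in channel 1 and the LatY136F RNA in channel 2, and on array 2 the channels were exchanged. Both arrays belong to 1 comparison of 2 RNA sources, no label says that they used separate extracts, and so no p-value is given; the difference between the arrays may be technical only.

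Heterotrimeric G proteins carry signals from cell surface receptors, among them the chemokine receptors that guide lymphocytes. The signal lasts while the alpha subunit holds GTP, and RGS proteins end it by speeding up GTP hydrolysis. Rgs10 is among the shortest members of the family, acts on alpha subunits of the Gi class, and has been described as a brake on chemokine-driven integrin adhesion in T cells and on inflammatory activation in macrophages and microglia.

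All ratios below are LatY136F over wildtype, on a log2 scale centred on each array's median, where -1 is 2-fold lower; they are differences and not levels, since the scanner signals were not analysed here. They rest on 2 readings of the deposited table. The values were taken as log10 ratios, because the highest value of array 1 is exactly 2, and they were taken as channel 2 over channel 1. The second reading is likely and not certain: with the opposite one every sign below turns. Array 2 was multiplied by -1, since its label gives the opposite polarity and names the 2 cell sources in the other order. The deposited columns correlated negatively but weakly (Pearson r = -0.21 across 8014 probes, which are not independent replicates).

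Rgs10 (Entrez gene 67865) was deposited at -0.985 on array 1 and 0.989 on array 2, as log10 ratios with the dyes exchanged. Turned, centred and on the log2 scale these became -3.26 on array 1 and -3.26 on array 2. Both arrays put Rgs10 far below 0, whichever dye the LatY136F RNA carried. The mean corresponds to a 9.59-fold lower ratio, or 10.4% of the wildtype signal. The arrays differed little: 0.5 times their difference was 0.00021 for Rgs10, against a median of 0.15 over all genes; 6 genes, Rgs10 included, had a difference this small, so the closeness of the pair does not measure the precision of the value. In bulk RNA a smaller share of Rgs10-expressing cells and less Rgs10 RNA per cell cannot be told apart.

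**Figure D1:**
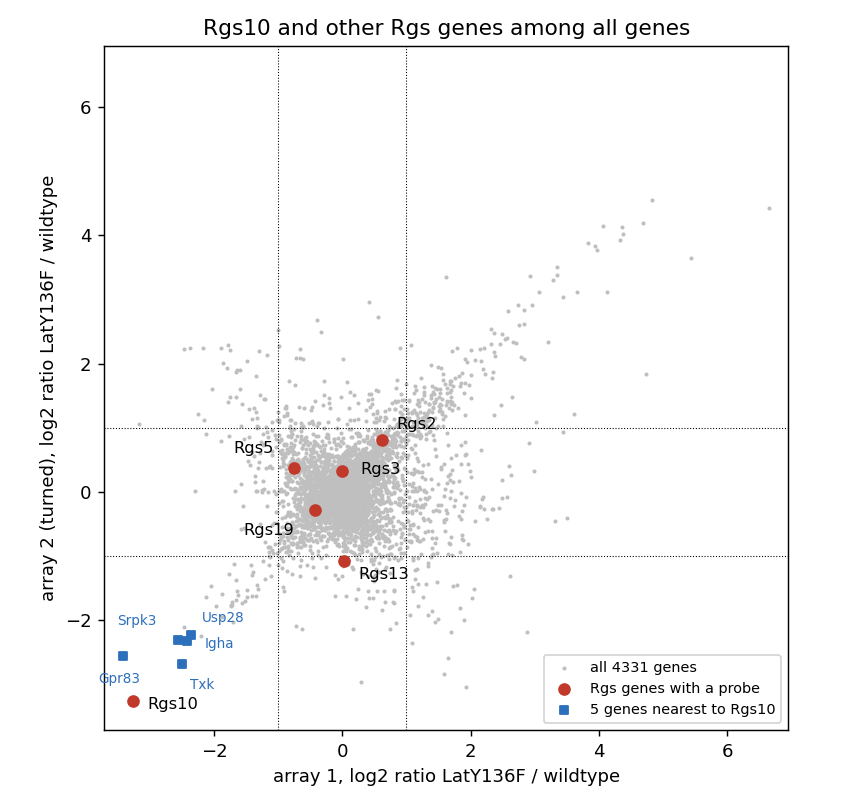
Log2 ratio of LatY136F over wildtype on array 1 (x axis) and on array 2 with its sign turned (y axis) for all 4331 genes (grey), the 6 Rgs genes (red circles) and the 5 genes nearest to Rgs10 (blue squares); dotted lines mark a 2-fold difference. Rgs10 lies at -3.26 on both axes at the lower left, and the other Rgs genes lie in or near the central cloud.

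Rgs10 had the lowest mean of the 4331 genes and of all 8014 probes, unnamed ones included. It ranked first from the bottom on array 2 and second on array 1, where Gpr83 was lower. Rgs10 was the only gene at least 8-fold lower on both arrays, while 18 genes were at least 8-fold higher on both. These ranks were known when the gene was chosen and describe it only.

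The stretch of DNA just before the annotated start of Rgs10 is shown with that of Rgs2, the family member that lay furthest on the other side of 0, so that the start regions of both can be compared. Both sequences come from RefSeq (GRCm38.p6), cover the 250 bases before the start, and are written 5′ to 3′ along the gene's strand. Capitals mark the GC box GGGCGG, a binding sequence of Sp and Klf factors, and the core TGACG of the cyclic AMP response element, each on either strand. The Rgs10 stretch lies at chr7:128418173-128418422 on the minus strand and the Rgs2 stretch at chr1:144004150-144004399, also on the minus strand.
Rgs10: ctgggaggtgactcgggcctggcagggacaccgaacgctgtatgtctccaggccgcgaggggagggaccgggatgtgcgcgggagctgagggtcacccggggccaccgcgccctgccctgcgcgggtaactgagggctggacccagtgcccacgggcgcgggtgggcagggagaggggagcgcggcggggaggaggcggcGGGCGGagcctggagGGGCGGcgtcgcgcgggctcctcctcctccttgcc
Rgs2: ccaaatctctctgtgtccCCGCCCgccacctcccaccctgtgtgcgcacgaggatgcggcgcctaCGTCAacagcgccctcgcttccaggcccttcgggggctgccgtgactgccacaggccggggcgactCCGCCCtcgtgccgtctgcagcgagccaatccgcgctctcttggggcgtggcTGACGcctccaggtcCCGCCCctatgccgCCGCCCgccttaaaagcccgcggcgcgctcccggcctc

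The Rgs10 stretch held 2 GC boxes, whose first bases lay at -50 and -35 from the start, and no TGACG. The Rgs2 stretch held 4 GC boxes and 2 TGACG sites. Of the 32851 promoters in the table, some of which belong to the same gene, 32.7% held a GC box and 17.8% a TGACG in the same window. Neither gene's window held the full element TGACGTCA (1.55% of promoters; every such element also contains TGACG) or TATAAA (12.4%). Rgs10 had a G and C content of 76.4% with 27 CpG dinucleotides and Rgs2 one of 72.4% with 30, against medians of 52.4% and 6. The arrays measured transcripts and not these regions, so the matches are a description of the letters.

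Rgs10 was the 1 gene called among the 6 Rgs genes. A gene was called lower or higher when it was at least 2-fold apart in one direction on both arrays. By that rule 1 of the 5 Rgs genes of the list, Rgs10, was lower, beside 0.970% of all genes called lower; because Rgs10 was chosen by this ratio, nothing is read from the count. None of the 5 was called higher, beside 4.20% of all genes. The median of the 5 was -0.18, but -0.42 by array 1 and 0.33 by array 2 when taken singly; that of all genes was 0.00039.

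Rgs2, which acts mainly on the Gq class of alpha subunits and is induced in activated T cells, stood at 0.62 on array 1 and 0.81 on array 2. Both arrays placed it above 0, at a mean of 0.72 ± 0.09 (0.5 times the difference between the arrays, here and below) or 1.64-fold higher, short of 2-fold. At a 1.5-fold threshold on both arrays Rgs2 counted as higher, as did 7.83% of all genes; Rgs10 then remained the 1 lower gene of the 5, beside 2.93% of all genes.

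Rgs19, also called GAIP, a regulator of Gi class subunits, stood at -0.42 on array 1 and -0.28 on array 2. Its mean of -0.35 ± 0.07 was 1.27-fold lower and was not called at either threshold. Rgs3, which acts on Gi and Gq class subunits, gave -0.0072 and 0.33, on either side of 0, with a mean of 0.16 ± 0.17. Rgs5, a gene best known from pericytes and vascular smooth muscle, gave -0.75 and 0.38, so its mean of -0.18 ± 0.56 has no direction here.

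Rgs13, known from germinal centre B cells and mast cells, gave 0.03 on array 1 and -1.08 on array 2. Its mean of -0.53 ± 0.55 therefore rests on array 2. In the RefSeq gene order Rgs2 and Rgs13 are immediate protein-coding neighbours on chromosome 1.

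Ordered by their means, the 6 genes ran from Rgs10 through Rgs13, Rgs19, Rgs5 and Rgs3 to Rgs2. The values of neighbouring genes in this order overlapped between the arrays for Rgs13 and Rgs19, for Rgs19 and Rgs5, and for Rgs5 and Rgs3, so these neighbours have no order beyond their spread. Rgs19 lay below Rgs3 on both arrays without overlap. Rgs3 and Rgs2 did not overlap and differed by 0.55. Rgs10 lay 2.74 below Rgs13 without overlap, a gap larger than the distance from Rgs13 to Rgs2.

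**Figure D2:**
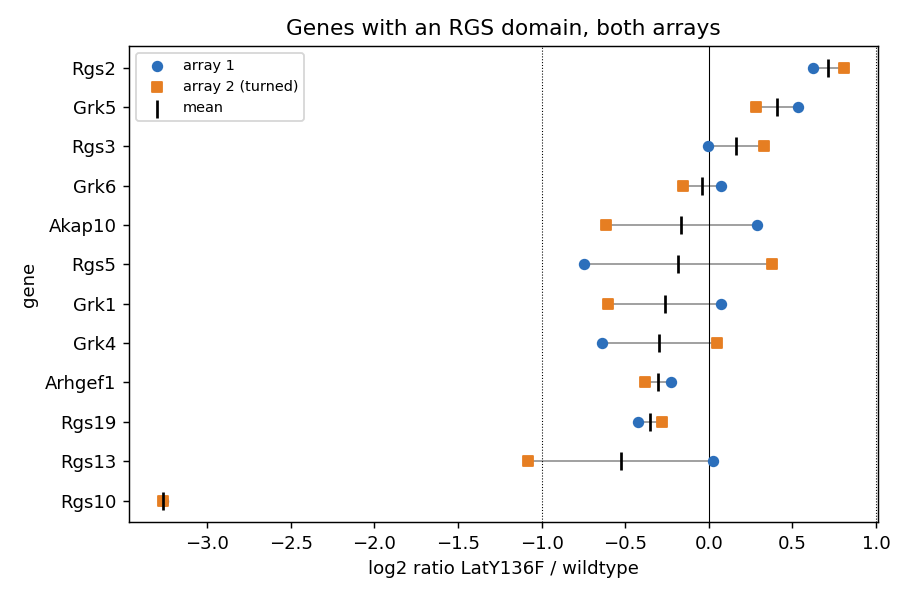
Log2 ratio of LatY136F over wildtype (x axis) on array 1 (blue circles), on array 2 with its sign turned (orange squares) and their mean (black tick) for the 12 genes with an RGS or related domain that had a probe (y axis, ordered by mean); dotted lines mark 2-fold. The arrays coincide for Rgs10 at -3.26, while the other 11 genes have means between -0.53 and 0.72.

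Proteins outside the Rgs series also carry an RGS-type domain. Of 6 such genes measured none was called, beside 4.20% of all genes called higher and 0.970% called lower. A list of 6 is too small to read anything from this. Grk5, a kinase that silences activated receptors, stood at 0.41 ± 0.12, and Grk6, the related kinase that is prominent in lymphocytes, at -0.04 ± 0.11. Arhgef1, a guanine nucleotide exchange factor, stood at -0.30 ± 0.08 with the same sign on both arrays. Grk1 (-0.26 ± 0.34), Grk4 (-0.30 ± 0.35) and the kinase anchor Akap10 (-0.16 ± 0.45) changed sign between the arrays.

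None of the 3 alpha and 4 beta or gamma subunit genes measured was called, beside 4.20% of all genes higher and 0.970% lower. So few genes would rarely hold a call, and nothing is read from that count. Gnai2, the main Gi class alpha subunit of lymphocytes and a substrate of the RGS family, stood at 0.01 on array 1 and 0.21 on array 2, a mean of 0.11 ± 0.10. Gnas, the alpha subunit that stimulates adenylyl cyclase, had a mean of -0.00029 ± 0.05, and Gnat1, another alpha subunit, one of -0.35 ± 0.43. Gnb1, a beta subunit, stood at 0.39 on array 1 and 0.38 on array 2, and was the only one of 4 beta and gamma genes with the same sign on both arrays. The other three were Gnb4 (0.07 ± 0.42), Gnb5 (0.23 ± 0.50), which partners the larger Rgs proteins of another subfamily, and Gng4 (-0.11 ± 0.35). Rasd1, a Ras-like protein that can activate Gi class subunits, stood at 0.51 ± 0.01 and was the only further modulator measured.

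Called receptors of the Gi class lay on both sides of 0. Whether any of them signals through Rgs10 in these cells was not tested. Of 24 receptors coupled to the Gi class and mostly linked to lymphocyte traffic, 2 were called higher and 1 lower, beside 4.20% and 0.970% of all genes. Their median was 0.0027, but 0.21 by array 1 and 0.083 by array 2 when taken singly. Ccr2, a receptor of monocytes and effector T cells, stood at 3.34 on array 1 and 3.50 on array 2, a 10.7-fold higher ratio, and Ccr1 at 1.23 ± 0.12. Ccr7, which guides naive T cells into lymph nodes, stood at -1.70 and -2.03, a 3.64-fold lower ratio. Ccr6 (-1.05 ± 0.19) and Ccr3 (1.00 ± 0.09) each missed the 2-fold threshold on 1 array.

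Of 8 receptors coupled to the Gs class, 2 were called higher, beside 4.20% of all genes: Ptgir, the prostacyclin receptor, at 3.24 ± 0.20, and Ptger4, a prostaglandin E receptor, at 1.74 ± 0.20. Ptger2, another prostaglandin E receptor, stood at 0.62 ± 0.11 and Ptgdr, a prostaglandin D receptor, at -0.59 ± 0.22, neither called. The median of the 8 was -0.05, but -0.02 by array 1 and 0.42 by array 2 when taken singly.

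None of the 11 cyclic AMP genes and 7 migration effectors downstream was called, beside 4.20% of all genes higher and 0.970% lower. With lists this small nothing is read from that count. Among 11 genes that make, break or sense cyclic AMP (median -0.07), Prkar1a, a regulatory subunit of protein kinase A, stood at 0.70 on array 1 and 0.73 on array 2, and the phosphodiesterase Pde4a at 0.45 ± 0.26. Among 7 effectors of cell migration the median was 0.39 and all 7 had the same sign on both arrays, 6 of them above 0. Beside this, array 1 and array 2 pointed the same way for 2416 of the 4331 genes. The genes of a list are not replicates, so nothing is read from the agreement of the 7. Rassf5, the Rap1 partner that activates integrins, stood at 0.75 ± 0.03. Pik3cg, the phosphoinositide 3-kinase driven by beta-gamma subunits, stood at 0.55 ± 0.01, and Vav1, an exchange factor for Rac, at -0.15 ± 0.08. At a 1.5-fold threshold on both arrays Prkar1a and Rassf5 counted as higher, as did 7.83% of all genes. Over the 58 genes measured from all lists of subunits, modulators, receptors and effectors, 4 were higher and 1 lower, which is 6.90% and 1.72% of them beside the 4.20% and 0.970% of all genes. The 2 arrays pointed the same way for 33 of these 58. The median of the 58 was -0.0047, but 0.17 by array 1 and 0.19 by array 2 when taken singly. Array 2 alone called 7 of them higher and 4 lower, and array 1 alone 4 higher and 2 lower.

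**Figure D3:**
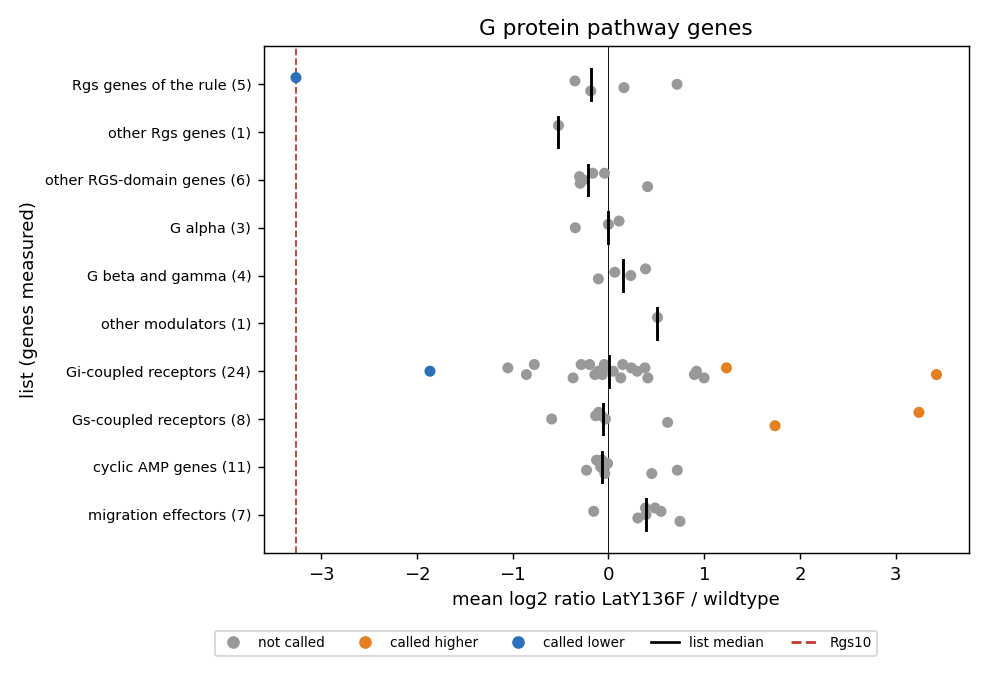
Mean log2 ratio of LatY136F over wildtype (x axis) for the measured genes of each G protein list (y axis, number measured in brackets); points are genes, coloured where called on both arrays, black bars are list medians and the dashed line is Rgs10. Rgs10 is at -3.26 and the next lowest gene of these lists, Ccr7, at -1.86.

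The genes most like Rgs10 were taken as the 5 with the smallest Euclidean distance to it over the log2 ratios of the 2 arrays, which by construction picks other strongly lower genes. Gpr83, a G protein-coupled receptor prominent in regulatory T cells, was nearest, at -3.41 on array 1 and -2.56 on array 2. The value of Rgs10 lies within that range, and the means differed by 0.28, so the order of these genes is not settled. Txk, a Tec family kinase of resting T cells, stood at -2.49 and -2.68. Srpk3, a kinase of splicing factors, had a mean of -2.43 ± 0.13, Igha, the constant region of the IgA heavy chain, one of -2.37 ± 0.05, and Usp28, a deubiquitinase, one of -2.29 ± 0.07. With 2 arrays of 1 comparison such likeness says only that the ratios are similar in size.

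Of the 8 protein-coding genes on either side of Rgs10 in the RefSeq gene order, 5 of the 16 had a probe. None of these 5 was called, beside 4.20% of all genes called higher and 0.970% called lower. With 5 genes measured nothing is read from that count. Tial1, an RNA-binding protein and the immediate neighbour on one side, stood near 0 on array 1 (0.01) and at 2.07 on array 2. Mcmbp, a binding partner of the replication helicase, stood at -0.44 ± 0.13, Wdr11 at -0.39 ± 0.02, the growth factor receptor Fgfr2 at -0.15 ± 0.64 and the integrin chain Itgax at 0.74 ± 0.04.

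Some markers of other cell types and of naive T cells differed beside Rgs10. Of 10 markers of T cells, the labelled cell type, none was called: Cd3e stood at -0.01 ± 0.13 and Cd4 at -0.17 ± 0.09, and means ran from -0.17 (Cd3d) to 0.81 (Cd5, at least 1.5-fold higher on both arrays) with a median of 0.18. Of 8 genes of naive T cells 3 were lower (Txk, Ccr7 and Cd27) and none higher, with a median of -0.75. The shares of all genes were 0.970% and 4.20%, as for the other lists of this paragraph. The 8 means ran from -2.59 (Txk) to 0.07 (Il7r). Klf2 (-0.10), Ets1 (-0.08) and S1pr1 (-0.29) also lay near 0, so the lower ratios were not general to the list. Of 15 B cell markers 7 were lower and none higher, with a median of -1.01 and means from -2.29 (Cd79b) to 0.63 (Cd24a). Of the CD8 T cell pair, Cd8b1 stood at -2.22 ± 0.02, called lower, and Cd8a at -0.63 ± 0.16. Rgs10 had the lowest mean of all genes, so it lay below every one of these markers by construction.

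Most myeloid markers lay on the opposite side of 0 from Rgs10. Of 15 monocyte and macrophage markers 7 were higher and none lower, beside 4.20% and 0.970% of all genes as for each list here, with 12 means above 0 and 3 below, a median of 1.23 and means from -0.45 (Msr1) to 2.73 (Mrc1), and Adgre1, a surface marker of macrophages, stood at 1.49 ± 0.17. Of 7 neutrophil markers 3 were higher and none lower (median 1.02), and of 3 platelet markers 2 were higher (median 1.20). Of 5 erythroid markers 2 were higher (median 0.84). Of 6 natural killer cell markers 1 was lower and 5 had a mean below 0 (median -0.34). Of 8 dendritic cell markers 1 was higher and 1 lower (median 0.05). The part of these other cells in the Rgs10 ratio was not tested; the table gives ratios and no levels, so how much of any marker was present is unknown.

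**Figure D4:**
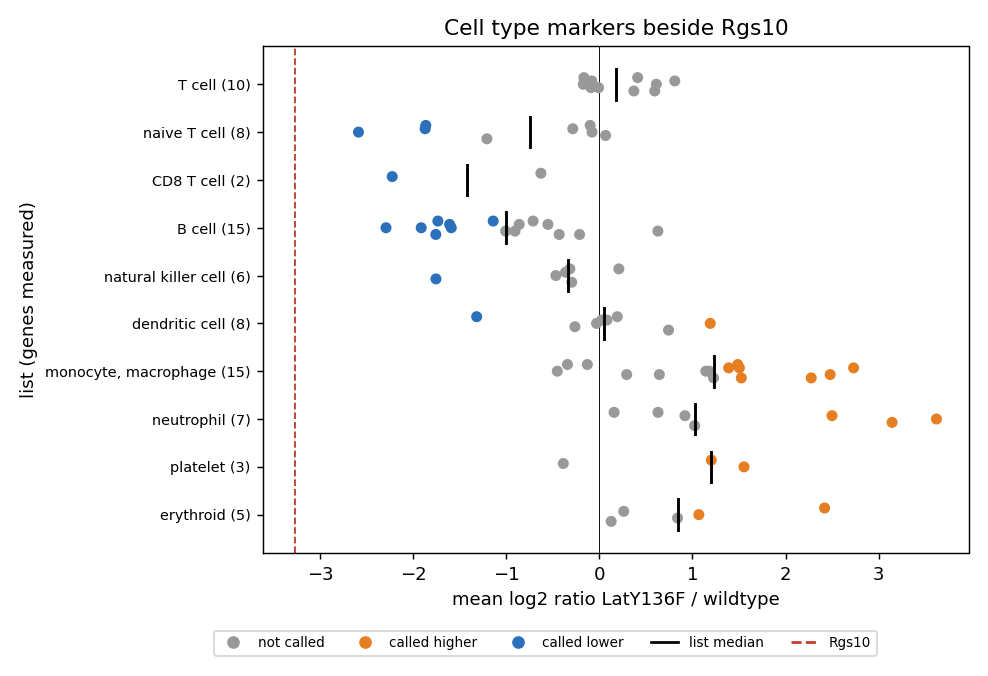
Mean log2 ratio of LatY136F over wildtype (x axis) for markers of 10 cell types (y axis, number measured in brackets); points are genes, coloured where called on both arrays, black bars are list medians and the dashed line is Rgs10. B cell and naive T cell markers lie mostly below 0, and monocyte and neutrophil markers mostly above. Rgs10, the lowest of all genes, is at -3.26.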

How the data were processed

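The authors deposited 1 log ratio per probe and array, read here as log10; no source used here states its base, direction, background correction or normalization. The columns as deposited had medians of -0.0033 and 0.0070. Array 2 was multiplied by -1, values by 3.32 to give log2, and the median over 8014 probes was subtracted per array. The platform annotation named 4654 probes with 1 symbol; 73 probes with several symbols and 3287 without one were not named. Probes of a gene were averaged (294 genes had more than 1). A gene was called at 2-fold on both arrays. This rule was run on simulated data whose planted differences were all larger than 2-fold. How often it errs near 2-fold or for genes without a difference is not given here, so no error rate is read from it. Members and gene lists were chosen with earlier results of these data known. Named genes were all measured genes with an RGS-type domain, called genes of each G protein list plus up to 2 more of one sign, the 5 genes nearest to Rgs10 and the markers that moved; others were named after their values were seen. Python 3.11.15, pandas 2.3.3 and numpy 2.4.6 were used.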

Additional observations from a re-analysis of the deposited data

How the results depend on the processing

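Rgs10 kept its ratio, within 0.01, when the arrays were scaled, and single arrays gave -3.26 to -3.26. Rgs10 had 1 probe with no value at 0, so choosing the strongest probe or leaving out probes at 0 could not change its ratio. Without centring it was -3.28. Read as log2 values, the table would put Rgs10 at -0.98, with 0 Rgs genes lower, and 1 pathway gene higher and 0 lower. With the sign turned, Rgs10 was at 3.26 and ranked 4331 from the lowest; 0 Rgs genes were lower and 1 higher, and 1 pathway gene was higher and 4 lower. Its rank was 1 to 2 on single arrays. At 1.5-fold, 1 Rgs gene was higher, and 7 pathway genes were higher and 3 lower; at 3-fold, 2 were higher, as a changed threshold must move counts. On single arrays, where a call needs 1 value, 4 to 7 pathway genes were higher and 2 to 4 lower. The pathway median was -0.022 without centring, -0.016 with the strongest probe, and 0.17 to 0.19 on single arrays; the cause was not tested. For the other 5 Rgs genes, 34 of 40 alternatives moved the ratio by no more than the standard deviation of the 2 arrays. Much of this count was fixed in advance. Each gene had 1 probe with no value at 0, so the strongest probe and leaving out probes at 0 changed nothing. A single array always moves the mean by less than that standard deviation. The sign turned 3 times apart from the turned reading, each time on a single array. A test with pairs was not possible, as the arrays form 1 comparison. Signal over background is unknown, so the precision of a single ratio cannot be given.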
